A study of Mus musculus with 12 samples.

Results

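The genes described here are 52 ligands and receptors of axon guidance, taken by name from the netrin, Slit/Robo, semaphorin/plexin and ephrin families among the 53379 genes counted. The RNA came from the external granule layer (EGL), the outer layer of the developing cerebellum, cut out by laser capture from the central lobules of C57BL/6 mice at postnatal day 6. Mice carrying a conditional SnoN knockout (SnoN is a transcriptional corepressor, the product of Skil and a partner of SMAD proteins downstream of TGF-beta) were compared with control littermates labelled wild type. There were 6 wild-type and 6 knockout libraries, named here by the number in their titles (WT1, KO2 and so on). Since WT2 and KO4 carry an outlier mark from the submitters, the comparison used 5 wild-type (WT1, WT3, WT5, WT6, WT7) and 5 knockout libraries (KO2, KO3, KO5, KO6, KO8), and the marked libraries are given beside it. KO2 is a knockout by its title and wild type by its genotype tag, and was kept as knockout. The labels name neither the Cre driver, nor the cells it acts in, nor the deleted part of Skil, nor the animal behind each library, so the spread that p-values rest on is that of libraries and may be partly technical.

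Guidance cues are secreted or membrane-bound proteins that attract or repel growth cones and migrating cells. Netrin acts through the receptors Dcc, neogenin (Neo1) and the Unc5 proteins. Slits act through Robo receptors, semaphorins through plexins, with neuropilins as co-receptors for most secreted forms, and ephrins through Eph receptor tyrosine kinases in cell contacts. In the cerebellum, granule neuron precursors divide in the outer part of the EGL, and their daughters extend axons along its inner part before they migrate inward past the Purkinje cells. Mouse mutants of Unc5c, Plxnb2, Sema6a and Plxna2 are known for misplaced granule cells or defects of granule cell layering and migration.

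The gene counts summed to between 7520076 and 15083086 per library. Skil averaged 49.9 ± 7.98 CPM over the wild-type and 30.7 ± 6.38 CPM over the knockout libraries (SD, n = 5 each), with each of these 5 knockout libraries below each of the 5 wild-type libraries, a log2 fold change of -0.70 whose adjusted p of 0.124 was not called. WT2 (76.5 CPM) and KO4 (14.0 CPM) lay further apart in the same order, which for this gene is the order of their labels. CPM are counts per 1000000 after TMM scaling, a correction for differences in library composition. In the edgeR quasi-likelihood test 3 of 13442 genes passed a Benjamini-Hochberg adjusted p of 0.05, which is 0.0223%, although 2925 genes (21.8%) had an unadjusted p under 0.05. All 12 markers of granule neuron precursors and all 8 of differentiating granule neurons passed the filter on low counts. At an unadjusted p under 0.05, 2 precursor markers were higher and 1 lower in knockout, and 2 differentiating markers were higher and 2 lower. Of 3 tested interneuron markers 2 were higher and 1 lower. Of all genes tested 11.8% were higher and 9.97% lower at that level. Of 9 tested Purkinje cell markers 5 had an unadjusted p under 0.05, all higher in knockout, beside 11.8% of all genes. This number was 3 with the trend of GC content removed (described below), beside 8.02% of all genes. It was 0 in a fit to all 12 libraries, beside 1.91%. The Purkinje list summed to between 286 and 399 CPM over the wild-type libraries, 354 and 626 CPM over the knockout libraries, 786 CPM (WT2) and 328 CPM (KO4). For 8 endothelial and pericyte markers the sums in CPM ran from 308 to 412 (wild type) and from 323 to 456 (knockout), and none had such a p. Bergmann glia and astrocyte markers summed to between 575 and 978 CPM (wild type) and between 802 and 1247 CPM (knockout). Higher at that level were 2 of 9, 1 with the GC trend removed and 0 in 12 libraries, beside the same shares of all genes. Of 6 tested oligodendrocyte lineage markers 3 were lower, 2 with the GC trend removed (7.56% of all genes) and 1 in 12 libraries (1.55%). For precursor markers the counts higher and lower were 2 and 2 with the GC trend removed, and 2 and 0 in 12 libraries. For differentiating ones they were 0 and 2, then 0 and 0. For interneuron markers they were 1 and 1 in both. Meningeal fibroblast markers summed to between 447 and 786 CPM (wild type) and between 429 and 822 CPM (knockout). Higher were 1 of 6, and 0 with the GC trend removed and in 12 libraries. Of 5 microglia and 5 red blood cell markers none had such a p, except 1 microglia marker higher with the GC trend removed. In tissue of mixed cells, fewer cells of a type and less RNA per cell cannot be told apart, and the part of these other cells in the results below was not tested.

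Of the 52 guidance genes, 46 passed the filter on low counts and were tested. The other 6 were Slit1, Slit3, Robo3, Plxna4, Plxnb3 and Sema5b. Robo3, a receptor best known from commissural axons, had 1 count, in WT3. Slit3 had at most 3 counts in any library, and Slit1 at most 20 (WT7). The plexins Plxna4 and Plxnb3 reached at most 25 counts (KO5) and 14 counts (WT7), and Sema5b ranged from 3 counts in WT2 to 39 in WT3. A count of 0 allows a level of up to between 0.196 CPM (WT7) and 0.371 CPM (WT6), depending on the library, for counting error only. Levels of Slit ligands were thus low in the captured layer, and Slit2 was the only 1 of the 3 that was tested.

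Levels can be compared between genes only per length, so CPM were divided by the kilobases of annotated exon (CPM per kb). The length joins all annotated exons of a gene, so it can exceed that of the transcripts present, and the level is then understated. For example, Unc5c (19135 bases) was at 105 CPM and Unc5b (6258 bases) at 60.0 CPM, the reverse of their order per kb. In wild type the order was led by Sema7a, a GPI-anchored semaphorin, at 54.1 ± 12.3 CPM per kb (SD, n = 5 here and for each level below), and Plxnb2, a plexin receptor for class 4 semaphorins, at 44.7 ± 8.29. The ranges of the 5 wild-type values of these genes overlapped. Sema7a exceeded 91.9% of the 13442 tested genes and Plxnb2 exceeded 90.4%. Neo1 followed at 26.7 ± 2.51 CPM per kb, and its range lay apart from that of Plxnb2 above it and of Efna2 below it. These were the only 2 of 51 adjacent pairs in the order whose wild-type ranges did not overlap, so the order of close neighbours further down is not resolved by the spread.

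Behind these came Efna2, a GPI-anchored ephrin (12.5 ± 1.19 CPM per kb), Plxnc1, the plexin that binds Sema7a (12.2 ± 0.522), and Sema6a, a transmembrane semaphorin (11.6 ± 1.04). Among the netrin receptors Unc5b followed Neo1 at 9.59 ± 1.86, then Unc5c at 5.50 ± 0.512 CPM per kb. The ligand Ntn1 was at 7.88 ± 1.499. Dcc was far lower at 1.07 ± 0.316, and Unc5a (0.408 ± 0.146) and Unc5d (0.283 ± 0.0769) were lower still. Of the Robo receptors, Robo2 was at 6.41 ± 0.421 and Robo1 at 1.26 ± 0.124 CPM per kb, while their ligand Slit2 was at 0.237 ± 0.0798. The A plexins, receptors for class 6 semaphorins and, with neuropilins, for class 3, were lower than Plxnb2 and Plxnc1: Plxna3 was at 2.94 ± 0.531, Plxna2 at 1.01 ± 0.238 and Plxna1 at 0.623 ± 0.176 CPM per kb. Plxnb1 was at 4.05 ± 0.211 and Plxnd1, known from blood vessels, at 2.02 ± 0.444.

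The neuropilins were near the bottom of the order, Nrp2 at 0.372 ± 0.0491 and Nrp1 at 0.348 ± 0.0709 CPM per kb, as were the secreted semaphorins that use them. Sema3a was at 0.573 ± 0.172, Sema3f at 0.482 ± 0.153 and Sema3c at 0.192 ± 0.0837 CPM per kb. Of the 8 tested membrane-bound semaphorins all but Sema5a had higher means than these. Sema6c was at 7.12 ± 1.07, Sema4c at 5.88 ± 0.554, Sema6b at 3.62 ± 0.919 and Sema6d at 2.20 ± 0.385 CPM per kb, with Sema4d (1.26 ± 0.399) and Sema5a (0.0776 ± 0.0391) below them. EphB receptors were led by Ephb2 (7.18 ± 0.822) and Ephb1 (6.57 ± 1.63), followed by Ephb4 (3.88 ± 0.267) and Ephb3 (0.196 ± 0.0945). Their ligands, the transmembrane ephrins, were at 7.36 ± 1.158 for Efnb1, 5.65 ± 0.988 for Efnb3 and 2.26 ± 0.570 for Efnb2. All 5 EphA receptors were below 3 CPM per kb. Epha8 was at 2.63 ± 1.21, Epha3 at 1.84 ± 0.322 and Epha7 at 1.43 ± 0.386, with Epha5 at 0.275 ± 0.0880 and Epha4 at 0.260 ± 0.0547. Besides Efna2, the A ephrins were at 7.24 ± 1.59 (Efna4), 4.58 ± 0.970 (Efna5) and 1.47 ± 0.215 CPM per kb (Efna3).

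**Figure D1:**
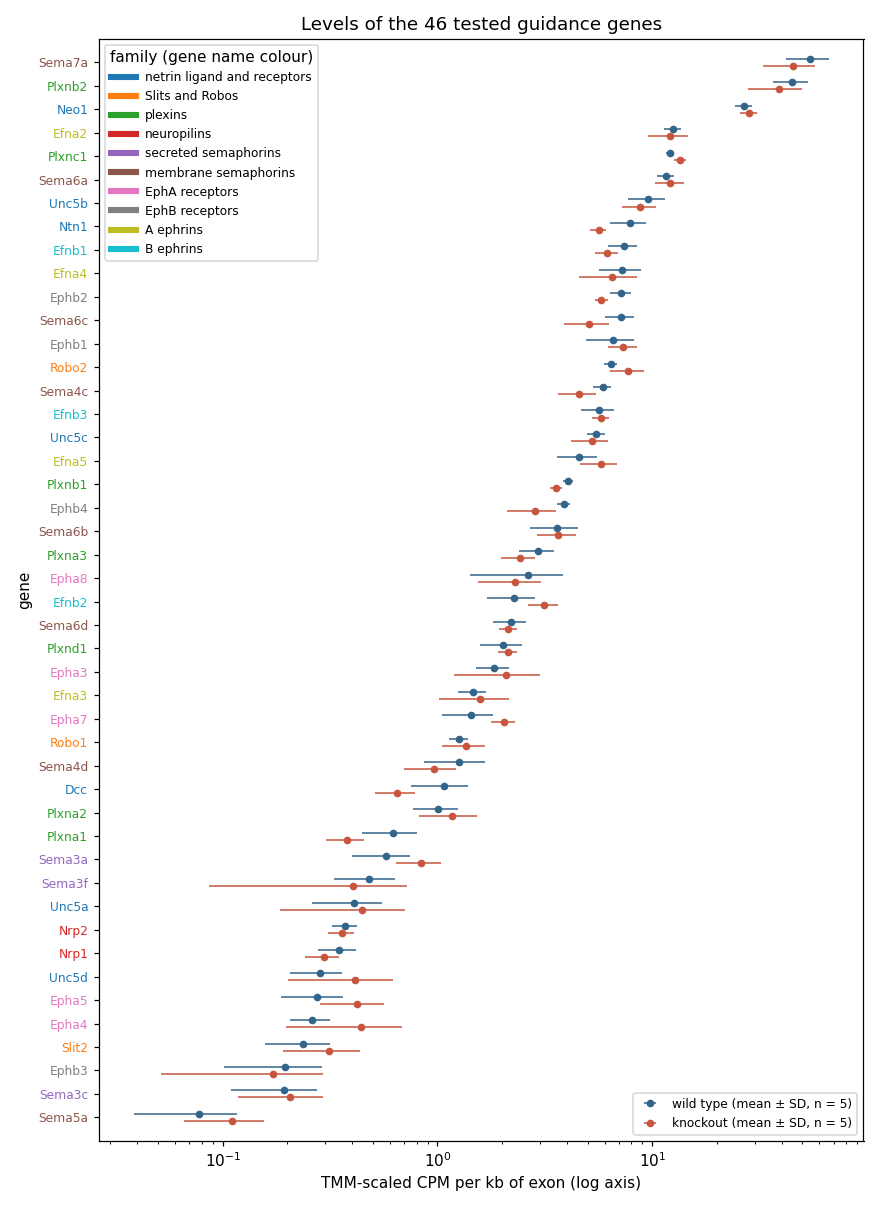
Levels of the 46 tested guidance genes, 1 row per gene in the order of the wild-type mean, as TMM-scaled CPM per kb of exon on a log axis, with mean and SD over 5 wild-type (blue) and 5 knockout (red) libraries. Sema7a, Plxnb2 and Neo1 stand above the rest, and neuropilins, secreted semaphorins and the EphA receptors Epha5 and Epha4 lie in the lower part.

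The comparison of knockout with wild type asked which guidance genes differ in the layer between the SnoN conditional knockout and control mice. In edgeR's test no guidance gene had an adjusted p under 0.05 (0 of 46, beside 0.0223% of all genes tested), and the adjusted p ran from 0.128 to 0.957. At an unadjusted p under 0.05 there were 12 of 46 (26.1%), close to the 21.8% of all genes tested. Of the 12, 5 were higher in knockout (11.8% of all genes were) and 7 lower (9.97% of all genes were). DESeq2 run on the same genes called Ntn1 and Dcc as lower (adjusted p of 0.0272 and 0.0407) among 461 genes called, which is 3.43%. The fold changes of the 46 were balanced, 23 above 0 and 23 below, with a median log2 fold change of -0.01 beside 0.00 over all genes tested, and ranged from -0.72 to 0.75. Because 0 members passed, the values below describe differences that the test did not call. Where 5 values of CPM are given for a group, they stand in the order WT1, WT3, WT5, WT6, WT7 for wild type and KO2, KO3, KO5, KO6, KO8 for knockout.

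**Figure D2:**
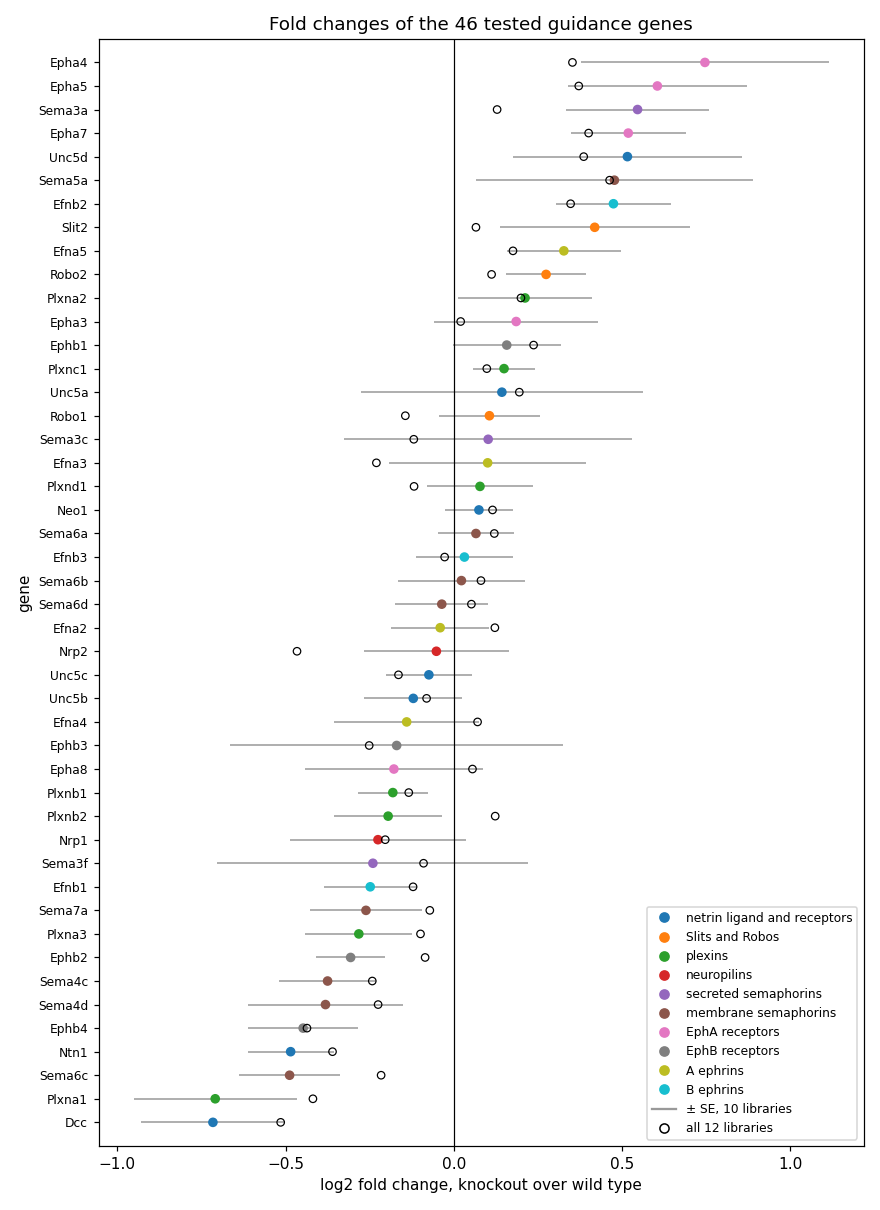
Log2 fold change, knockout over wild type, of the 46 tested guidance genes from the edgeR fit to 10 libraries (filled points coloured by family, grey lines ± SE) and to all 12 libraries (open circles). Dcc and Plxna1 are at the low end and Epha4 and Epha5 at the high end, and for most of the outer genes the open circle lies nearer to 0.

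Ntn1, the secreted netrin ligand, had the smallest p of the guidance genes (chromosome 11, 68209364 to 68400823 in GRCm38, minus strand). It was at 46.1, 45.8, 40.7, 65.3 and 49.4 CPM in wild type, and at 33.0, 38.1, 35.7, 38.2 and 31.4 CPM in knockout. All 5 knockout libraries lay below all 5 wild-type libraries. The means were 49.5 ± 9.41 and 35.3 ± 3.06 CPM (SD, n = 5 each), and the log2 fold change was -0.48 (SE 0.13, unadjusted p = 0.00132, adjusted p = 0.128 in edgeR's test). The two-sided exact permutation p was 0.00794, the smallest that 5 against 5 libraries can give. WT2 (30.1 CPM) and KO4 (39.7 CPM) had the opposite order, and a fit that included both gave -0.36 (unadjusted p = 0.0294).

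Dcc, the receptor through which netrin attracts axons (chromosome 18, 71253634 to 72351069, minus strand), was at 13.9, 13.2, 8.10, 19.6 and 15.7 CPM in wild type. In knockout it was at 8.37, 7.84, 11.1, 9.25 and 6.26 CPM. The groups overlapped through WT5, and the other 4 wild-type libraries were above all 5 knockout libraries. The log2 fold change was -0.72 (SE 0.21, unadjusted p = 0.00348, adjusted p = 0.131), and -0.51 with WT2 (8.27 CPM) and KO4 (12.4 CPM) included. None of the other 5 netrin receptors had an unadjusted p under 0.05. Neo1, which also binds repulsive guidance molecules, was at 233 ± 21.9 and 245 ± 22.4 CPM, or 0.07 on the log2 scale (SE 0.10, adjusted p = 0.683). Unc5b was at 60.0 ± 11.7 and 55.2 ± 10.1 CPM, and Unc5c at 105 ± 9.79 and 99.8 ± 19.8 CPM. The scarce Unc5d had a log2 fold change as large as that of Ntn1 but with a wider error, 0.52 (SE 0.34, unadjusted p = 0.146), from 2.61 ± 0.709 to 3.80 ± 1.94 CPM, and Unc5a was at 1.70 ± 0.609 and 1.86 ± 1.09 CPM. Ntn1 and Dcc were the only 2 of the 7 netrin genes (28.6%) at an unadjusted p under 0.05, both lower in knockout. Of all genes tested 21.8% had such a p, and 9.97% were lower at that level.

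Robo2, the most abundant Slit receptor here (chromosome 16, 73891839 to 74411825, minus strand), was at 112, 120, 106, 105 and 102 CPM in wild type. The knockout libraries were at 143, 156, 100, 114 and 144 CPM. KO2, KO3 and KO8 were above every one of the 5 wild-type libraries, and KO5 and KO6 were within or below their range. The fitted log2 fold change was 0.27 (SE 0.12, unadjusted p = 0.0324, adjusted p = 0.194). WT2 at 189 CPM was higher than any other library, and with both marked libraries the fold change was 0.11. Robo1 was at 20.8 ± 2.04 and 22.4 ± 5.02 CPM and Slit2 at 6.04 ± 2.03 and 7.99 ± 3.13 CPM.

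Among the 7 tested plexins only Plxna1 (14.3%, beside 21.8% of all genes) had an unadjusted p under 0.05. This receptor for class 3 and class 6 semaphorins (chromosome 6, 89316314 to 89362620, minus strand) was at 4.84, 8.39, 5.22, 5.44 and 4.32 CPM in wild type. Knockout values were 3.02, 3.45, 2.94, 4.63 and 3.17 CPM. The groups overlapped only through KO6, which was above WT7. Its log2 fold change was -0.71 (SE 0.24, unadjusted p = 0.00900, adjusted p = 0.145), and it was -0.42 with WT2 (3.31 CPM) and KO4 (6.42 CPM). WT3 stood apart from the other wild-type libraries, and the exact permutation p was 0.0159. Plxnb2 was at 345 ± 64.0 and 301 ± 84.9 CPM, with WT6 at 455 CPM and KO5 at 449 CPM far above the others of their groups. Its log2 fold change of -0.20 (SE 0.16, adjusted p = 0.482) became -0.38 (adjusted p = 0.0171) without KO5 and 0.12 with the marked libraries, of which WT2 was at 193 CPM and KO4 at 583 CPM. Plxnc1 had the smallest relative spread of the tested guidance genes in wild type (coefficient of variation 4.29%), at 102 ± 4.36 against 113 ± 7.48 CPM.

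For the semaphorins, 2 transmembrane forms had lower and 1 secreted form had higher levels in knockout at an unadjusted p under 0.05. These were 2 of 8 tested membrane-bound and 1 of 3 secreted forms, beside 9.97% of all genes lower and 11.8% higher. Sema6c (chromosome 3, 95160457 to 95174024, plus strand) was at 35.6, 36.6, 41.7, 50.1 and 47.2 CPM in wild type, and at 25.5, 27.1, 41.6, 32.0 and 24.4 CPM in knockout. KO5 lay within the wild-type range and the other 4 knockout libraries lay below it. The log2 fold change was -0.49 (SE 0.15, unadjusted p = 0.00459, adjusted p = 0.131). The order turned in the marked libraries, with 20.6 CPM for WT2 and 49.3 CPM for KO4, and with them the fold change was -0.22 (unadjusted p = 0.326).

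Sema4c, a ligand of Plxnb2 (chromosome 1, 36548639 to 36558349, minus strand), was at 29.3, 23.7, 29.4, 27.6 and 25.0 CPM in wild type. Values in knockout were 23.5, 17.5, 21.9, 25.7 and 15.8 CPM. Its groups overlapped through KO6 alone. The fitted log2 fold change was -0.38 (SE 0.14, unadjusted p = 0.0185, adjusted p = 0.165). WT2 was at 12.5 CPM, below all other libraries, and KO4 at 20.8 CPM, and the fold change with both was -0.24.

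Sema3a, a secreted repellent (chromosome 5, 13125414 to 13602565, plus strand), was at 7.80, 11.8, 8.01, 5.32 and 6.87 CPM in wild type. In knockout it was at 13.8, 15.3, 9.45, 9.25 and 10.4 CPM. WT3 lay inside the knockout range, and the other 4 wild-type libraries lay below all 5 knockout libraries. Its log2 fold change was 0.55 (SE 0.21, unadjusted p = 0.0198, adjusted p = 0.168). WT2 had the highest level of all at 18.3 CPM and KO4 the lowest at 4.96 CPM, and with them the fold change was 0.13 (unadjusted p = 0.670). Sema7a, the leading semaphorin by level, was at 178 ± 40.5 and 149 ± 40.4 CPM, or -0.26 on the log2 scale (SE 0.17, adjusted p = 0.365), and without KO5 at -0.44 (adjusted p = 0.0143). Sema6a was at 102 ± 9.09 and 107 ± 16.2 CPM, and Nrp2 at 4.40 ± 0.581 and 4.25 ± 0.598 CPM, or -0.05 on the log2 scale (SE 0.22, adjusted p = 0.908).

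For the Eph receptors the fold changes are given by class. Of 5 EphA receptors 4 had a fold change above 0, and Epha7 and Epha5 had an unadjusted p under 0.05. Of 4 EphB receptors 3 had one below 0, and Ephb2 and Ephb4 had such a p. Of all genes tested 11.8% were higher and 9.97% lower at that level. The median GC content of the transcripts was 43.6% for EphA and 56.7% for EphB receptors. With the GC trend removed (described below), 1 of 5 EphA and 0 of 4 EphB receptors had such a p, beside 15.6% of all genes. The median log2 fold changes were then 0.34 for EphA and -0.08 for EphB receptors. Whether the classes differ from each other was not tested. Epha7 (chromosome 4, 28813131 to 28967499, plus strand) was at 10.9, 20.4, 14.9, 12.5 and 11.97 CPM in wild type. The knockout libraries were at 21.9, 22.2, 19.8, 15.9 and 21.2 CPM. WT3 was again the wild-type library nearest to the knockout, and the other 4 wild-type libraries were below all 5 knockout libraries. The log2 fold change was 0.52 (SE 0.17, unadjusted p = 0.00720, adjusted p = 0.139), and 0.40 with WT2 (22.7 CPM) and KO4 (21.9 CPM).

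Epha5 (chromosome 5, 84054761 to 84417382, minus strand) was at 5.20, 3.95, 4.95, 2.47 and 6.41 CPM in wild type. Knockout values were 8.56, 10.3, 4.72, 5.04 and 6.91 CPM. Again KO2, KO3 and KO8 were above the wild-type range, and KO5 and KO6 were inside it. The fitted log2 fold change was 0.60 (SE 0.27, unadjusted p = 0.0358, adjusted p = 0.2003), and 0.37 with WT2 (9.46 CPM) and KO4 (6.52 CPM). Epha4, named after its value was seen because its fold change of 0.75 on the log2 scale was the highest of the 46, was at 2.09 ± 0.440 and 3.54 ± 1.95 CPM (SE 0.37, unadjusted p = 0.0575). KO2, KO3 and KO5 were above all 5 wild-type libraries, while KO6 and KO8 were among the lowest. Epha8, the EphA receptor with the highest level per length, was at 12.4 ± 5.68 and 10.8 ± 3.55 CPM, or -0.18 on the log2 scale (SE 0.26, adjusted p = 0.716). Its sign turned to 0.06 in 12 libraries.

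Ephb2, the leading EphB receptor (chromosome 4, 136647539 to 136835988, minus strand), was at 89.9, 83.4, 85.0, 109 and 85.6 CPM in wild type. Values in knockout were 71.4, 69.5, 82.1, 72.5 and 69.9 CPM. With Ntn1 it was 1 of the 2 tested guidance genes whose groups did not overlap, both lower in knockout. These are 4.35% of the 46, beside 2.35% of all genes tested in either direction and 1.31% lower. Its log2 fold change was -0.31 (SE 0.10, unadjusted p = 0.00823, adjusted p = 0.145, exact permutation p = 0.00794). The marked libraries had the opposite order by a wide margin, 54.2 CPM for WT2 and 112 CPM for KO4, and with them the fold change was -0.09 (unadjusted p = 0.598).

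Ephb4, best known from veins, where it binds Efnb2 of arteries (chromosome 5, 137350109 to 137378669, plus strand), was at 18.6, 19.7, 17.0, 18.1 and 16.6 CPM in wild type. In knockout it was at 11.97, 18.7, 10.52, 10.8 and 13.9 CPM. KO3 lay inside the wild-type range and the other 4 lay below it. The log2 fold change was -0.45 (SE 0.16, unadjusted p = 0.0130, adjusted p = 0.154). Ephb4 was the only 1 of the 12 genes for which WT2 (19.4 CPM) and KO4 (14.9 CPM) kept the order of the other libraries, and with them the fold change was -0.44 (unadjusted p = 0.0105). Zan overlaps Ephb4 on the opposite strand, and reads from the overlap are not separable without strand.

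Efnb2 (chromosome 8, 8617434 to 8661242, minus strand), a transmembrane ephrin, was at 13.4, 21.3, 15.7, 10.8 and 16.3 CPM in wild type. The knockout libraries were at 26.8, 21.4, 17.5, 19.7 and 22.6 CPM. WT3 lay within the knockout range and the other 4 wild-type libraries below it. The fitted log2 fold change was 0.47 (SE 0.17, unadjusted p = 0.0126, adjusted p = 0.153), and 0.35 with WT2 (22.0 CPM) and KO4 (18.6 CPM). The other ephrins had no unadjusted p under 0.05. Efnb1 was at 25.4 ± 3.997 and 21.3 ± 2.58 CPM, or -0.25 on the log2 scale (SE 0.14, adjusted p = 0.296), and Efna2 at 26.6 ± 2.53 and 25.9 ± 5.50 CPM (-0.04, SE 0.15, adjusted p = 0.891).

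**Figure D3:**
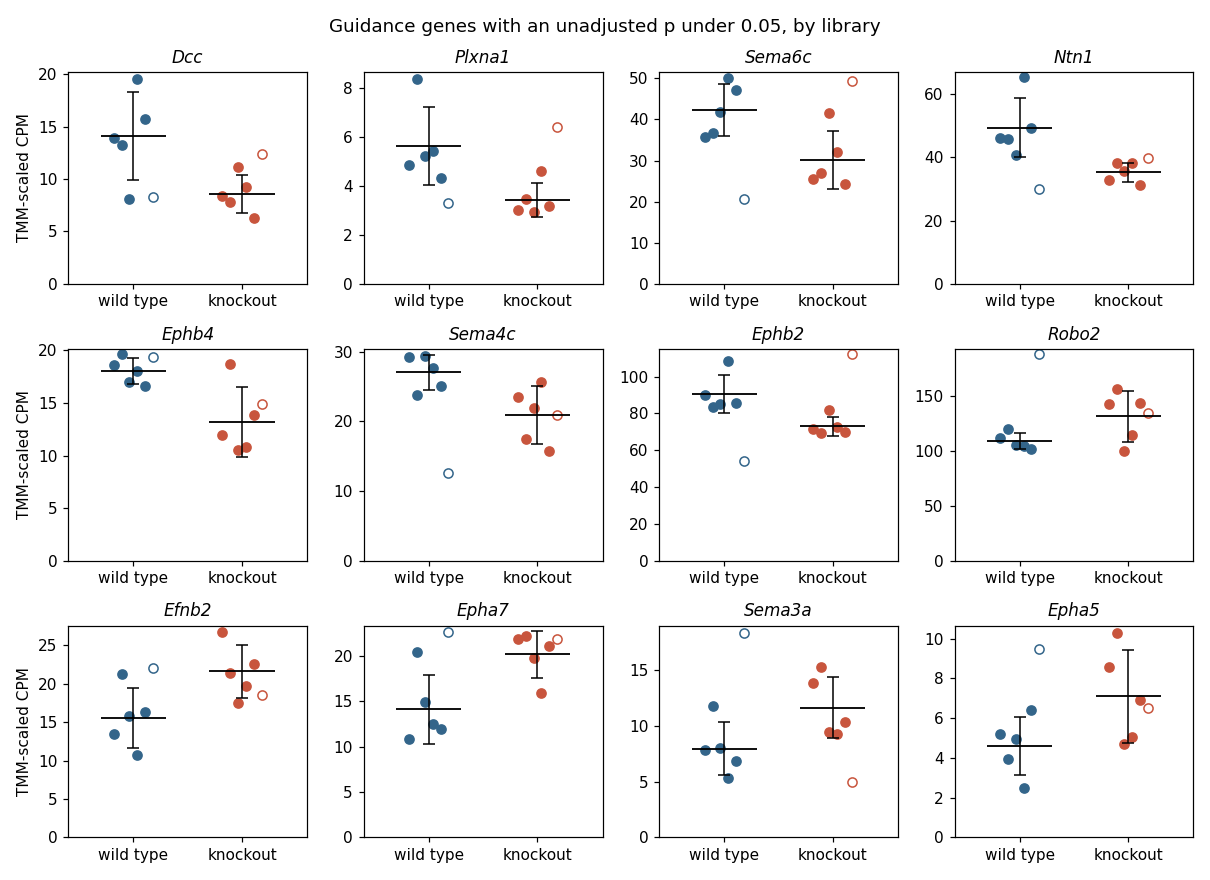
TMM-scaled CPM in each library for the 12 guidance genes with an unadjusted p under 0.05, ordered by fold change, with wild type in blue and knockout in red. Bars are mean ± SD of the 5 filled points, and open circles are the marked libraries WT2 and KO4, which have the opposite order for 11 of the 12 genes.

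The counts of genes called depended most on KO5. Without KO5, 11 guidance genes passed an adjusted p of 0.05 among 3102 genes called, which is 22.9% of all genes tested. They were Sema6c, Dcc, Ntn1, Sema7a, Ephb2 and Plxnb2 as lower, and Robo2, Efnb2, Epha7, Sema3a and Epha5 as higher. In no other fit without 1 library did a guidance gene pass. At an unadjusted p under 0.05 the number higher in knockout went from 5 to 2 without KO2, KO3 or WT6, and the number lower went from 7 to 11 without KO5. The share of all genes at that level, in either direction, changed as well. It was 14.3%, 14.1% and 14.7% without KO2, KO3 and WT6. Without KO5 it was 35.5%, beside 37.0% of the guidance genes. With both marked libraries included, 4 of 46 (8.70%) had an unadjusted p under 0.05, beside 3.47% of all genes, and none passed the adjusted threshold, which 0.00751% of all genes did. WT2 and KO4 had the opposite order for 34 of the 46 genes, beside 73.2% of all genes tested, and for 11 of the 12, beside 91.0% of the 2925 genes at that level.

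Fold changes varied with the GC content of the transcripts. Across the 46 genes the Pearson correlation of GC content with the log2 fold change was -0.54, and across all genes tested it was -0.46 (genes are not independent replicates and share the same libraries, so no p is given). The 26 guidance genes above the median GC content of tested genes (49.8%) had a median log2 fold change of -0.18, with 7 above 0 and 19 below. The 20 at or below it had a median of 0.20, with 16 above 0 and 4 below. Over all genes tested the medians were -0.14 and 0.15. Of the genes with an unadjusted p under 0.05, Sema6c (62.8% GC), Ntn1 (58.9%), Ephb4 (58.1%), Sema4c (57.9%), Plxna1 (57.2%) and Ephb2 (55.9%) were GC-rich and lower. Sema3a (40.6%), Robo2 (42.7%), Epha7 (43.2%) and Epha5 (43.6%) were GC-poor and higher. Dcc (45.8%) and Efnb2 (53.2%) had the other combination.

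The relation also varied between libraries of 1 group. The correlation of GC content with a library's deviation from the mean of the 10 libraries, over the 46 genes, was positive in all 5 wild-type libraries, from 0.10 in WT3 to 0.50 in WT6. It was -0.51 in KO2, -0.60 in KO3 and -0.43 in KO8, but 0.29 in KO5 and 0.17 in KO6. In WT2 it was -0.64 and in KO4 0.10. With each library's trend over all genes taken out, 6 of 46 genes (13.0%) had an unadjusted p under 0.05, beside 15.6% of all genes, 2 higher (8.02% of all genes) and 4 lower (7.56%). None passed the adjusted threshold, which 0.0372% of all genes did.

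Those 6 were Dcc, with a log2 fold change of -0.81 (unadjusted p = 0.00139, adjusted p = 0.158), Ntn1 (-0.29, unadjusted p = 0.0223), Sema6c (-0.32, unadjusted p = 0.0167), Plxna1 (-0.54, unadjusted p = 0.0422), Epha7 (0.34, unadjusted p = 0.0398) and Efnb2 (0.59, unadjusted p = 0.00442). Robo2 moved to 0.06, Sema3a to 0.29, Sema4c to -0.20, Ephb2 to -0.14 and Ephb4 to -0.25, each closer to 0. Of the 6 above, Ntn1 (from -0.48), Sema6c (from -0.49), Plxna1 (from -0.71) and Epha7 (from 0.52) also moved closer to 0. Dcc (from -0.72) and Efnb2 (from 0.47) moved away from it. Epha5 was at 0.42 (unadjusted p = 0.0992). With the marked libraries and the trend taken out, 3 of 46 (6.52%) had such a p, beside 4.39% of all genes, 1 higher (2.47%) and 2 lower (1.92%), and none passed the adjusted threshold (0.0301% of all genes). In all 4 fits, with and without the marked libraries and with and without the GC trend, Ntn1, Dcc and Epha7 had an unadjusted p under 0.05. These are 3 of 46 guidance genes (6.52%), beside 254 of 13290 genes (1.91%), and the fits share libraries.

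**Figure D4:**
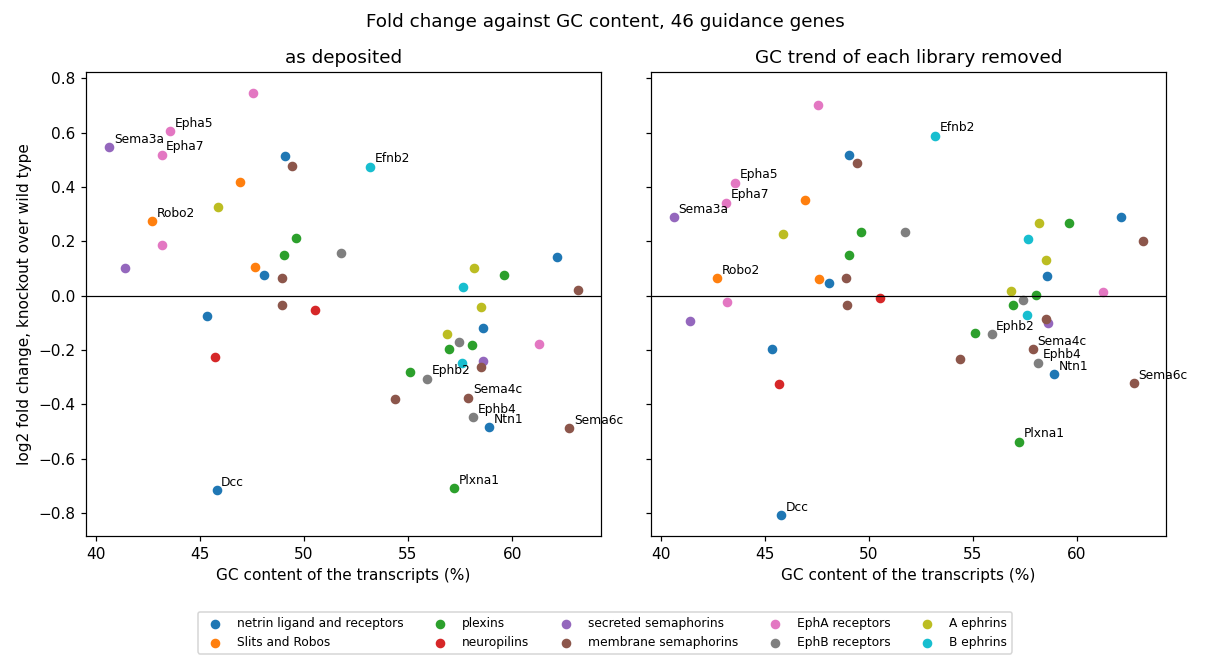
Log2 fold change, knockout over wild type, against the GC content of the transcripts in percent for the 46 tested guidance genes, coloured by family, from the fit to the deposited counts (left) and with each library's GC trend removed (right). Gene names are given for the 12 with an unadjusted p under 0.05 on the left, where the correlation is -0.54; on the right it is -0.18.

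The sequences before the start sites are shown for 4 of these genes, 2 lower (Sema6c, Ephb2) and 2 higher (Epha7, Efnb2), since GC content of the transcript and of the promoter need not go together. They are the 250 bases before a RefSeq start (GRCm38.p6), 5′ to 3′ on the gene's strand, with the SMAD-binding box CAGAC, searched on both strands (as CAGAC or GTCTG), in capitals. Sema6c lies at chr3:95160170-95160419 on the plus strand, Ephb2 at chr4:136836013-136836262 on the minus strand, Epha7 at chr4:28812881-28813130 on the plus strand, and Efnb2 at chr8:8661243-8661492 on the minus strand.
Sema6c: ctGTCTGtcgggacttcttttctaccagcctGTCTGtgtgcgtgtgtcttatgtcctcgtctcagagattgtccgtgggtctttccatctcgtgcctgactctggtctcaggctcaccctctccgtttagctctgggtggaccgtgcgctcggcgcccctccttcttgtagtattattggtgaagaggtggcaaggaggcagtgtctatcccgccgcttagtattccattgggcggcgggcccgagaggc
Ephb2: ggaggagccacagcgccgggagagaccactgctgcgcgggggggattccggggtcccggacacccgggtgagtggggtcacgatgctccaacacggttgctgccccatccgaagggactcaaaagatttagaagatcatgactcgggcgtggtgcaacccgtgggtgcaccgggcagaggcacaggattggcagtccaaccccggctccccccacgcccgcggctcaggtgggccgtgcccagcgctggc
Epha7: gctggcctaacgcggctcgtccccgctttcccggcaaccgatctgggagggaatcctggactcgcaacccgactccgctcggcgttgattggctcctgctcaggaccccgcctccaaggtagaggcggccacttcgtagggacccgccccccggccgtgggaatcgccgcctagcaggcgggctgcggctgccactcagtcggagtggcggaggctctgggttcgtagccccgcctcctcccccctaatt
Efnb2: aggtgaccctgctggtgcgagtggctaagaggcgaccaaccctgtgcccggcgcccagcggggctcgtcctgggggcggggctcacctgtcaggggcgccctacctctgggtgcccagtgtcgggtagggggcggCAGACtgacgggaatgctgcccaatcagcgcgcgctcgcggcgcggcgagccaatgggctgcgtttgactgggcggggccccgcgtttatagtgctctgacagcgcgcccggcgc
The window of Epha7 was 69.2% G and C although its transcripts were at 43.2%, and that of Sema6c was 57.6% although its transcripts were at 62.8%. Ephb2 and Efnb2 had 68.4% and 72.0% in the window, and the median over 10154 tested genes with a window was 60.4%. Sema6c held 2 boxes, Efnb2 held 1, and Ephb2 and Epha7 held none. A box was present in 17 of the 43 guidance genes with a window, and in 40.2% of the windows of all genes tested. A match is a description of the letters and not a measured site.

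Of 84 related genes, listed as other family members and as intracellular effectors of guidance receptors, 71 were tested. None passed the adjusted p of 0.05 in edgeR's test. At an unadjusted p under 0.05, 8 were higher and 19 lower, beside 11.8% and 9.97% of all genes tested. All 8 higher ones and 16 of the lower ones were among the 53 tested effectors, whose median log2 fold change was -0.13. With the GC trend taken out there were 6 higher and 10 lower, beside 8.02% and 7.56% of all genes, and with the marked libraries 2 higher and 4 lower, beside 1.91% and 1.55%. The smallest p on the lower side were those of Dpysl5, a collapsin response mediator (58.6 ± 7.78 against 39.3 ± 8.02 CPM), the kinase Pak1 (48.7 ± 6.89 against 34.5 ± 5.07 CPM), the basement membrane netrin Ntn4 (66.4 ± 7.65 against 51.1 ± 6.57 CPM) and the focal adhesion kinase Ptk2 (69.9 ± 10.2 against 53.5 ± 7.20 CPM). On the higher side they were those of Pak3 (55.5 ± 6.12 against 85.2 ± 24.2 CPM), the motor Myo10, which carries netrin receptors into filopodia (29.3 ± 3.10 against 38.7 ± 3.97 CPM), the exchange factor Trio (67.2 ± 11.1 against 89.7 ± 17.9 CPM) and the kinase Rock1 (135 ± 25.2 against 193 ± 56.5 CPM). Their adjusted p lay between 0.124 and 0.146. With the GC trend removed the log2 fold change of Pak3 moved from 0.62 to 0.29 and that of Rock1 from 0.51 to 0.17 (unadjusted p = 0.176). With the marked libraries Pak3 was at 0.33, Rock1 at 0.34, Dpysl5 moved from -0.58 to -0.34 and Ptk2 from -0.39 to -0.21. WT2 and KO4 kept the order of the other libraries for Ntn4 (61.9 and 53.8 CPM) and Trio (86.6 and 91.6 CPM). They had the opposite order for the other 6, among them Dpysl5 (27.4 and 56.6 CPM) and Pak3 (114 and 66.8 CPM).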

How the data were processed

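Per the submitters' processing notes, the authors used cutadapt 1.16, STAR 2.5.3a and HTSeq 0.6.1 with build mm10 to make the deposited gene counts, 1 table per library; DESeq2 is also named. No source used here gives the settings, the annotation release or the strand setting, and the library kit named in the labels' protocols does not mark strand. For the 24 of 52 members that an opposite-strand gene overlaps, reads of both may be mixed or left out as ambiguous. The overlap was taken over whole gene bodies, introns included, so it need not touch exons. Identifiers were matched without version to GENCODE M21 (GRCm38), 53274 of 53379. The 5 summary rows were left out: of uniquely placed reads, 10.8% to 14.7% lay in no counted feature and 6.81% to 8.13% were ambiguous. Of all records, 64.4% to 67.6% were alignments that were not unique.

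Genes were filtered with filterByExpr (minimum count 10), scaled by TMM and fitted over all genes with edgeR 4.0.16 (R 4.3.3), 5 against 5 libraries, with Benjamini-Hochberg adjustment at 0.05. CPM use factors over all 12 libraries. Permutation tests were exact and two-sided, on log2(CPM + 1). The GC trend was a spline (5 degrees of freedom) of log2 CPM on transcript GC content per library, entered as an offset. DESeq2 1.42.0 was an alternative. The main edgeR fit was tested on simulated counts of 5 against 5 libraries that held no GC trend. The other fits were not tested this way. Fold changes were printed for members with an unadjusted p under 0.05 and for the highest per-kb member of each of 10 families, and for up to 4 related genes in each direction. Those of Unc5d and Epha4 were printed outside this rule. Members, lists and alternatives were chosen with earlier results of these data known.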

Additional observations from a re-analysis of the deposited data

Results flagged for a closer look

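In 92 groups of 5 libraries (46 genes in wild type and in knockout), 8 held a library set apart from the rest of its group by a gap too wide for Dixon's 95% limit. That limit gives about 1 in 20 for independent groups of normal values. The 46 genes share the same libraries, so the 8 cannot be set against that rate. WT6 was high for Plxnb2 at 455 CPM (the other wild-type libraries between 295 and 341), for Epha8 at 22.3 CPM (8.49 to 12.1) and for Ephb2 at 109 CPM (83.4 to 89.9). KO5 was high for Plxnb2 at 449 CPM (the other knockout libraries between 234 and 287), for Sema7a at 219 CPM (116 to 140) and for Ephb2 at 82.1 CPM (69.5 to 72.5). WT3 was high for Plxna1 at 8.39 CPM (4.32 to 5.44) and for Plxnd1 at 20.3 CPM (12.2 to 14.6).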

How the results depend on the processing

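The alternatives gave the following counts, higher first, of genes called (2 and 1 above) and of guidance genes (5 and 7) and related genes (8 and 19) with an unadjusted p below 0.05. All 12 libraries gave 1 and 0 genes called, 1 and 3 guidance genes, and 2 and 4 related genes. KO2 counted as wild type gave 0 and 0, 0 and 4, and 0 and 7. DESeq2 called 237 and 224 genes, and no filter on counts called 634 and 331, among them 4 guidance genes (Dcc, Ntn1, Sema6c and Epha7). The genes called were 3.43% of all genes with DESeq2 and 3.49% with no filter on counts. Where only 1 direction is named below, the count of the other is left out. Scaling by library size alone gave 12 guidance genes at that level, 3 of them higher. The median log2 fold change of guidance genes was then -0.089, beside -0.08 over all genes. Removing the GC trend gave 5 genes called, 2 of them lower, 2 and 4 guidance genes, and 6 and 10 related genes. Of the alternatives chosen after seeing the data, all 12 libraries with the GC trend removed gave 4 genes called, 2 of them lower. That fit gave 1 and 2 guidance genes, and 2 and 3 related genes. Adding WT2 alone gave 2 genes called, 1 of them higher, 0 and 4 guidance genes, and 1 and 7 related genes. Adding KO4 alone gave 1 and 0 genes called, 9 guidance genes at that level, 4 of them lower, and 11 related genes lower. At that level were 3.47% of all genes in 12 libraries, 5.52% with KO2 counted as wild type and 21.4% by library size. The shares were 15.6% with the GC trend removed, 4.39% in 12 libraries with it removed, 3.69% with WT2 added and 12.2% with KO4 added.

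Leaving out 1 library at a time gave 0 to 1662 genes called higher and 0 to 1440 lower, 2 to 7 guidance genes higher and 6 to 11 lower, 7 to 10 related genes higher and 11 to 22 lower, and a median log2 fold change of guidance genes from -0.042 to 0.041. The highest counts of genes called came without KO5. Of all genes, between 14.1% (without KO3) and 35.5% (without KO5) had an unadjusted p under 0.05. Replicate numbers 3, 5 and 6 occur in both groups, but the deviations of same-numbered libraries correlated at 0.11, -0.05 and 0.09, so the numbers were not taken to pair the libraries. With a replicate block, 0 and 0 genes were called, 0 and 3 guidance genes and 1 and 3 related genes had an unadjusted p under 0.05, and with the block and the GC trend removed these counts were 0 and 0, 1 and 1, and 1 and 4. Of all genes, 4.5% had such a p with the block and 4.21% with the block and GC trend removal.

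Among the named genes, 6 turned sign under at least 1 alternative, none of them with an unadjusted p under 0.05 in the comparison above. Plxnb2 turned to 0.12 in 12 libraries, 0.0143 with block and GC trend removal, 0.18 in 12 libraries without the GC trend and 0.0142 with KO4 added. Epha8 turned to 0.0555 in 12 libraries, 0.0119 without the GC trend and 0.14 with both, and ran from -0.33 (without KO5) to 0.13 (without WT6) with 1 library left out. Efna2 turned to 0.12 in 12 libraries, 0.13 without the GC trend, 0.0266 and 0.15 in the block fits without and with GC correction, 0.19 in 12 libraries with it, 0.066 with WT2 added and 0.0112 with KO4 added, and ran from -0.15 (without KO5) to 0.0355 (without KO3, with 0.0321 without KO8). Neo1 turned to -0.0166 by library size, -0.0313 with the block and -0.0619 with block and GC trend removal. Nrp2 ran from -0.12 (without WT1) to 0.000344 (without KO6) and Sema7a turned to 0.00310 in 12 libraries without the GC trend. The cause of these changes was not tested. Depth limits the least abundant tested genes most: Sema3f and Ephb3 had as few as 4 counts in a library.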
